A study of Mus musculus with 40 samples.

Results

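The genes described here carry out glycolysis or answer to low oxygen, and were measured in cultures and in subcutaneous tumours of the mouse melanoma line B16F10. The set was given as a list of 34 gene names and not by a rule on measured values. The names were chosen with earlier results of these data known, so their counts are not independent of those results. Of these, 30 had a probe set on the array that named them alone, out of 17097 genes measured in that way. Gpi1, Pgam1, Eno1 and P4ha1 had none and are not analysed here. The 40 arrays, 1 per sample, fall into 6 groups. OTX015, a drug that blocks the bromodomains with which BET proteins read histone acetylation, was given to 4 cultures, set against 4 untreated cultures. It was given by mouth to mice bearing 10 tumours, set against 11 untreated tumours of the same experiment. Guadecitabine, an inhibitor of DNA methylation, was injected into the abdomen of mice bearing 6 tumours, set against 5 untreated tumours of their own. All tumours grew from the same line in C57black6J mice that were 8 weeks old when the cells were injected. The labels give no dose, no time of treatment and no sex, and do not say whether replicates were separate cultures or animals, so p-values measure the spread between these samples only.

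Glycolysis splits glucose into pyruvate in the cytosol. Glucose transporters let the sugar in, hexokinases trap it, phosphofructokinase commits it, and lactate dehydrogenase turns the pyruvate into lactate when it is not oxidised in mitochondria. In low oxygen the prolyl hydroxylases of the Egln family no longer mark the protein HIF-1α for destruction, and HIF raises transcription of many of these genes. Melanomas, like other fast-growing tumours, often use glycolysis with oxygen present and contain oxygen-poor regions. HIF-1α is controlled mainly as a protein, which arrays do not measure.

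HIF binds a short core sequence, written ACGTG or GCGTG, so the promoters of the members are shown before their levels. RefSeq promoters of the assembly GRCm38.p6, which run 250 bases before to 50 bases after each annotated start, were searched for both cores on both strands. The E-box CACGTG, bound by Myc and related factors, contains ACGTG and is counted within it. A core was present in 37 of 48 member promoters (77.1%), against 43.8% of all 32851 promoters. Member promoters were richer in G and C, with a median of 62.2% against 52.7%. Among promoters with at least 60% G and C, 25 of 28 member promoters (89.3%) held a core, against 69.2% of 9690. The core was found in at least 1 promoter of 26 of the 28 measured members with an entry, or 92.9%, against 46.7% of 27025 genes. A gene with more promoters has more chances of a match: the 28 members had 42 promoters and the 27025 genes 32851. The count by gene was not matched for G and C. Windows of neighbouring starts can overlap, as for Aldoa, Eno1 and Pfkm, so 1 site can count in more than 1 promoter. The E-box was found in 5 of the 28 (17.9%), against 8.09% of those genes. Among promoters with at least 60% G and C, 4 of 28 member promoters (14.3%) held it, against 10.8% of 9690. Slc2a3 and Ndrg1 are named only. A match describes the letters of the window and does not show binding. The promoters printed below belong to the 4 members with an entry that fell most in OTX015-treated cells, P4ha2, Pdk1, Hk2 and Bnip3, and to the pair that rose most, Eno2 and Slc2a1. Each is written 5′ to 3′ on the strand of the gene, with the matches in capitals; CACGT and CACGC are the same cores read on the opposite strand.
P4ha2 promoter, chr11:54100674-54100973, GRCm38.p6, plus strand: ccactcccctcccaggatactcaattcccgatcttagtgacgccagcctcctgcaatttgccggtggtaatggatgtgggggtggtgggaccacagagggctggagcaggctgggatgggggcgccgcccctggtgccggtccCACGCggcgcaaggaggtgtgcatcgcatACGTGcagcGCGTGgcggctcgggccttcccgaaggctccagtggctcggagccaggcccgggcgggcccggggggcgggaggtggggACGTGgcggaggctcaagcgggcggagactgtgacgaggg
Pdk1 promoter, chr2:71872974-71873273, GRCm38.p6, plus strand: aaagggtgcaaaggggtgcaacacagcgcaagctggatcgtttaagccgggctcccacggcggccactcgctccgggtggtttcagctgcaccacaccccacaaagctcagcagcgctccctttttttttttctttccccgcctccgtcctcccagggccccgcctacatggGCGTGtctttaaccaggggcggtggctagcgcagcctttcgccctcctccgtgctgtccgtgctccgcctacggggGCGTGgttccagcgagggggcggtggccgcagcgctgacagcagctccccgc
Hk2 promoter, chr6:82774405-82774704, GRCm38.p6, minus strand: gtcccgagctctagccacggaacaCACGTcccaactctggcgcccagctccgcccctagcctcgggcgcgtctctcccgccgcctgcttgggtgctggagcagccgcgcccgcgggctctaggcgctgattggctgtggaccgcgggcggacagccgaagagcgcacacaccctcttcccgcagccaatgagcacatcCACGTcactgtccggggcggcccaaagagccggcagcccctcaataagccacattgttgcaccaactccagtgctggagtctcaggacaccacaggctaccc
Bnip3 promoter, chr7:138909457-138909756, GRCm38.p6, minus strand: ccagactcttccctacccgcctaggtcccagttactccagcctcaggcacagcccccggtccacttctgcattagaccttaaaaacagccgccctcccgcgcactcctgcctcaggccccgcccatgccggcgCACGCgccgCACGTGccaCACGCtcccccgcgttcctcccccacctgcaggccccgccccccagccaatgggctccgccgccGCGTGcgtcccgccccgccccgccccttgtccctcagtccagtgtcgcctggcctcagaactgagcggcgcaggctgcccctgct
Slc2a1 promoter, chr4:119108495-119108794, GRCm38.p6, plus strand: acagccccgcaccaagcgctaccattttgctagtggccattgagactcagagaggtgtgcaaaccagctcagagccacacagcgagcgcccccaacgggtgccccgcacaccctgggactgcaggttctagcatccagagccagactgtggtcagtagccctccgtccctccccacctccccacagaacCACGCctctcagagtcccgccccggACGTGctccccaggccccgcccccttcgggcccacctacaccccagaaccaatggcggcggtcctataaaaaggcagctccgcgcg
Eno2 promoter, chr6:124769624-124769923, GRCm38.p6, minus strand: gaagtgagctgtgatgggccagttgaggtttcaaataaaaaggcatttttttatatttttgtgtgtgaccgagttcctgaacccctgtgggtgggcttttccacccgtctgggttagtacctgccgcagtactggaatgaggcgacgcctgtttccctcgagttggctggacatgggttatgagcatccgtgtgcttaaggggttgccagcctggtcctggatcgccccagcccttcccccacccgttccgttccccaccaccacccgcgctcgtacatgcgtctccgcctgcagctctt
P4ha2 showed 4 matches and Bnip3 5 matches, of which 2 are its E-box read on both strands. Pdk1, Hk2 and Slc2a1 showed 2 matches each, while Eno2 showed none in this window. Pdk1 has another annotated promoter, not printed here, which held 0 matches. The core was present in 16 of 17 members with an entry that were lower in OTX015-treated cells, in 5 of 6 that were higher and in 5 of 5 that were not called. Members of all 3 calls thus held it.

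**Figure D1:**
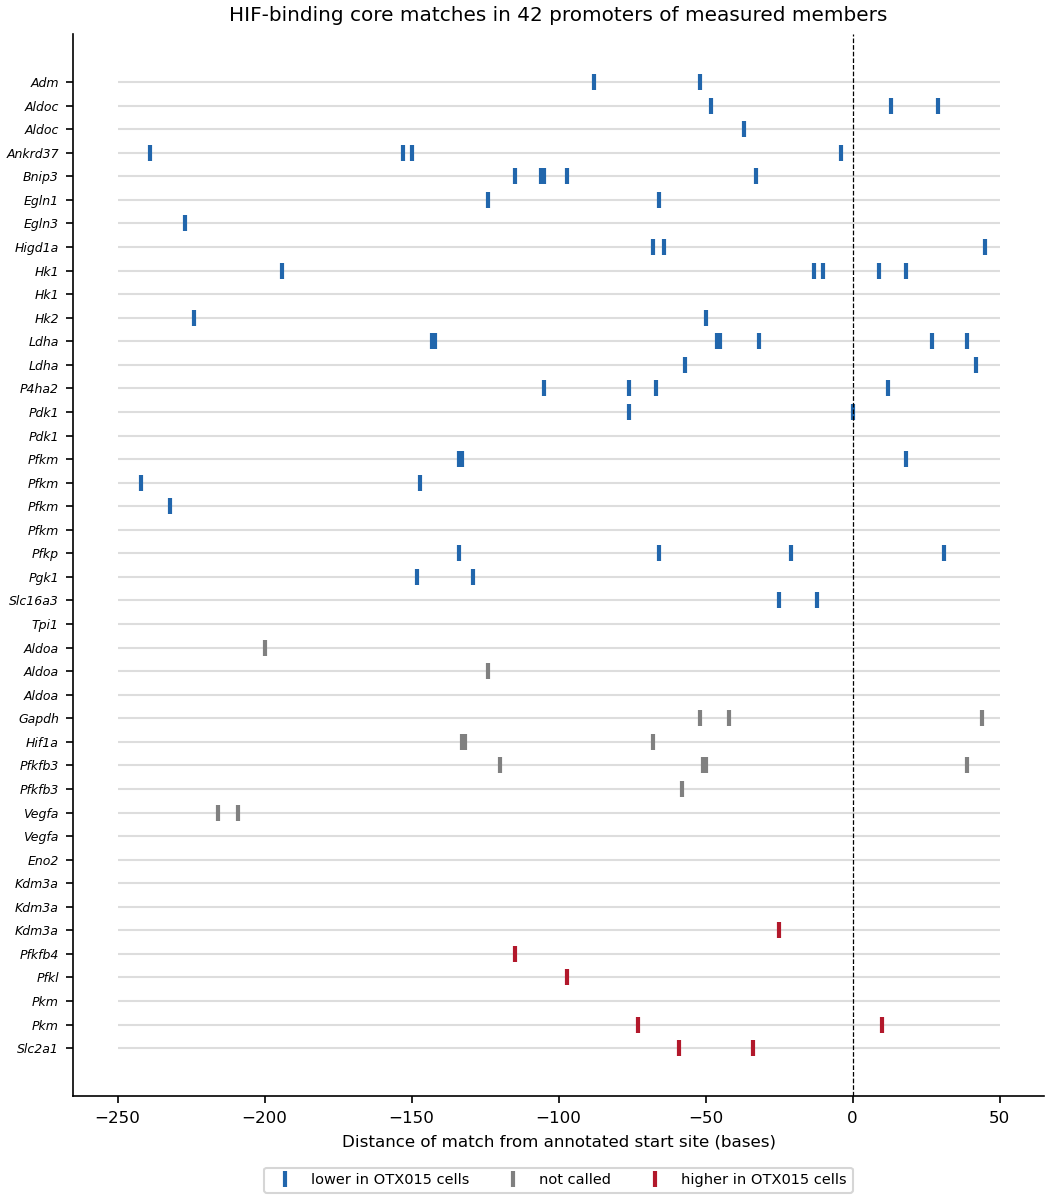
Positions of the HIF-binding core in the 42 promoters of measured members, in bases from the annotated start site (dashed line); each grey line is 1 promoter, and a gene with several annotated starts has several lines. Colour gives the call of the gene in OTX015-treated against control cells; matches occur in genes of all 3 calls.

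The arrays report a relative level on the log2 scale, so equal steps are equal ratios, and levels are compared within a gene. Olfactory and vomeronasal receptor genes, 78 in all, set a background level of 4.48. A gene was called higher or lower at a Benjamini-Hochberg adjusted p under 0.05 over all 17097 genes in limma. The label of melanocytes held in every group, as all 7 melanocyte markers averaged above background, with array means between 11.2 and 11.7. Tumours also held other cells: the mean of 8 macrophage markers was 4.60 to 8.27 on tumour arrays, against 3.65 to 3.78 on arrays of cultures. In bulk tumour RNA, fewer cells of a type and less RNA per cell cannot be told apart. The deposited values of the 10 OTX015-treated tumours lay lower throughout, with array means of 4.35 to 4.39 against 4.55 to 4.64 on the other 30 arrays. All 40 arrays were therefore first brought to 1 distribution. The shift coincides with 1 treated group, so a difference in processing and an effect of the drug cannot be told apart. That limit holds for every comparison that uses the OTX015-treated tumours, and a common distribution does not remove it.

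OTX015 lowered most members in cultured cells. Of 30 measured members, 19 fell and 6 rose, while 20.8% of all genes fell and 18.8% rose. The median difference was -0.35 over the members and 0.00 over all genes. The falls covered glucose entry by Slc2a3, the hexokinases, the diversion of pyruvate by Pdk1 and all 4 genes of adaptation to stress. The largest rise was that of Eno2, at 0.78, which was smaller than 10 of the 19 falls. Because the treated cultures also differed in nuclear-retained RNAs, those values stand beside the result: Malat1 rose by 2.21 ± 0.15 (SE) and Neat1 by 1.35 ± 0.14, Meg3 differed by -0.06 ± 0.07, and the mean of the 3 was 7.19 to 7.67 in OTX015-treated against 6.12 to 6.30 in control cultures. In OTX015-treated replicate 1 the 3′ probe set of Gapdh exceeded the 5′ probe set by 0.95, while the difference stayed at or under 0.28 on the other arrays. Without that culture 20 members fell and 5 rose. With all 6 groups in 1 fit, which shares the spread of tumours with that of cultures, 6 members lost their call: Slc2a1 (adjusted p = 0.068), Kdm3a (0.069), Eno2 (0.10), Ndrg1 (0.13), Egln3 (0.20) and Ankrd37 (0.42). The part of nuclear-retained RNA in the result was not tested.

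Slc2a3 encodes the high-affinity glucose transporter GLUT3 and changed most. Its level was 4.65, 4.51, 4.38 and 4.64 in OTX015-treated cultures, against 7.47, 7.46, 7.27 and 7.36 in control cultures. The groups were far apart, and the treated cultures sat at the background level, which limits how large a fall the array can show. The difference was -2.84 ± 0.08, or 7.18-fold lower (adjusted p = 4.7e-11 in limma). A second bright probe set of the gene, which can also bind related sequences, gave -2.59, and the other pair lay below background. Slc2a1, which encodes the widespread glucose transporter GLUT1, did the opposite. It stood at 7.58, 7.41, 7.42 and 7.34 in OTX015-treated cultures, against 6.91, 6.79, 6.66 and 7.21 in control cultures. Every treated culture was above every control culture, by 0.54 ± 0.11 on average (adjusted p = 0.00097). Slc16a3, the lactate exporter MCT4, was called lower by -0.77 ± 0.15, but its means of 3.36 and 4.13 in treated and control cultures were both below background.

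Among the enzymes of upper glycolysis, 6 of 8 measured members fell and 1 rose. Hexokinase 2 (Hk2), the inducible form, measured 6.75, 6.64, 6.69 and 6.79 in OTX015-treated cultures, against 8.34, 8.45, 7.54 and 8.44 in control cultures. All treated values were below all control values, although control replicate 3 lay apart from its group. The difference was -1.47 ± 0.16 (adjusted p = 7.5e-06). Hk1, the housekeeping form, was lower by -0.82 ± 0.12, and again control replicate 3, at 6.74, was the lowest control. The phosphofructokinase isoforms split: the platelet form Pfkp fell by 0.95 ± 0.10 and the muscle form Pfkm by 0.34 ± 0.10, while the liver form Pfkl rose by 0.51 ± 0.15. Other probe sets of Pfkl gave 0.23 (adjusted p = 0.15) and 0.10 (adjusted p = 0.42). Among the aldolases, which split fructose bisphosphate, Aldoc fell by 1.12 ± 0.11 and the abundant Aldoa differed by -0.15 ± 0.08 (adjusted p = 0.18; -0.21 and 0.036 without OTX015 replicate 1). Triosephosphate isomerase (Tpi1) fell by 0.34 ± 0.10, with 3 of 4 treated cultures below every control, and its other probe set gave -0.34 (adjusted p = 0.071). The probe sets used for Aldoa and Tpi1 can also bind related sequences. The call of Pfkm was lost without control replicate 4 or OTX015 replicate 4 (adjusted p = 0.050 and 0.053).

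The genes that set the level of fructose 2,6-bisphosphate, an activator of phosphofructokinase, changed little. Pfkfb4 rose by 0.30 ± 0.11 around the background level, and Pfkfb3 differed by 0.28 ± 0.13 without passing (adjusted p = 0.11). Pfkfb4 lost its call without control replicate 1 or 3 or OTX015 replicate 1 or 4, with adjusted p between 0.063 and 0.094. Pfkfb3 passed without control replicate 2 (0.034) or OTX015 replicate 2 (0.040).

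Lower glycolysis did not move one way: of 4 measured members 2 rose and 1 fell. Eno2, the neuronal form of enolase, measured 6.67, 6.47, 6.25 and 6.17 in OTX015-treated cultures, against 5.69, 5.54, 5.64 and 5.58 in control cultures. The groups did not overlap, and the difference was 0.78 ± 0.10 (adjusted p = 3.1e-05). Pyruvate kinase (Pkm) rose by 0.38 ± 0.12, a call lost without control replicate 1 or OTX015 replicate 2 (adjusted p = 0.069 and 0.062). Phosphoglycerate kinase (Pgk1) fell by 0.27 ± 0.07, with -0.21 on its other probe set (adjusted p = 0.058). Gapdh differed by 0.09 ± 0.08 (adjusted p = 0.49).

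Both genes that direct pyruvate fell. Pdk1 encodes a kinase that shuts pyruvate out of mitochondrial oxidation by inhibiting pyruvate dehydrogenase. It stood at 7.26, 7.20, 7.04 and 7.13 in OTX015-treated cultures, against 8.73, 8.55, 8.71 and 9.05 in control cultures. The groups lay apart by more than the range of either. The difference was -1.60 ± 0.10, or 3.03-fold lower (adjusted p = 3.7e-08), and its other probe sets gave -1.16 and -0.91. Ldha, the lactate dehydrogenase subunit that favours lactate, fell by 0.36 ± 0.10, with means of 10.7 and 11.1 in treated and control cultures.

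The oxygen-sensing genes gave mixed calls. The transcript of Hif1a itself differed by 0.07 ± 0.11 (95% interval -0.16 to 0.30, adjusted p = 0.67). Egln1, the main prolyl hydroxylase that marks HIF-1α, fell by 0.82 ± 0.12. Egln3, an isoform induced by HIF, fell by 0.33 ± 0.07 close to background. Kdm3a, a HIF-induced histone demethylase, rose by 0.38 ± 0.07.

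P4ha2, a prolyl hydroxylase subunit needed to make stable collagen, fell sharply. It measured 5.80, 5.83, 5.81 and 5.85 in OTX015-treated cultures, against 7.46, 7.67, 7.42 and 7.60 in control cultures. No values overlapped, and the difference was -1.71 ± 0.07, or 3.28-fold lower (adjusted p = 1.5e-09). The secreted factors parted: adrenomedullin (Adm), a peptide that widens vessels, fell by 0.79 ± 0.09, while Vegfa, which drives vessel growth, differed by 0.15 ± 0.08 (95% interval -0.03 to 0.33, adjusted p = 0.19).

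All 4 genes of adaptation to low oxygen fell. Bnip3, which promotes removal of mitochondria, stood at 9.003, 9.03, 9.07 and 9.09 in OTX015-treated cultures, against 10.33, 10.18, 10.46 and 10.71 in control cultures. The treated cultures were all lower than the lowest control, and the difference was -1.37 ± 0.10 (adjusted p = 1.6e-07). Ndrg1, a stress-induced gene, fell by 0.61 ± 0.09, and Higd1a, a mitochondrial protein of the hypoxia response, by 0.58 ± 0.09. Ankrd37, a HIF target with ankyrin repeats, fell by 0.43 ± 0.09.

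**Figure D2:**
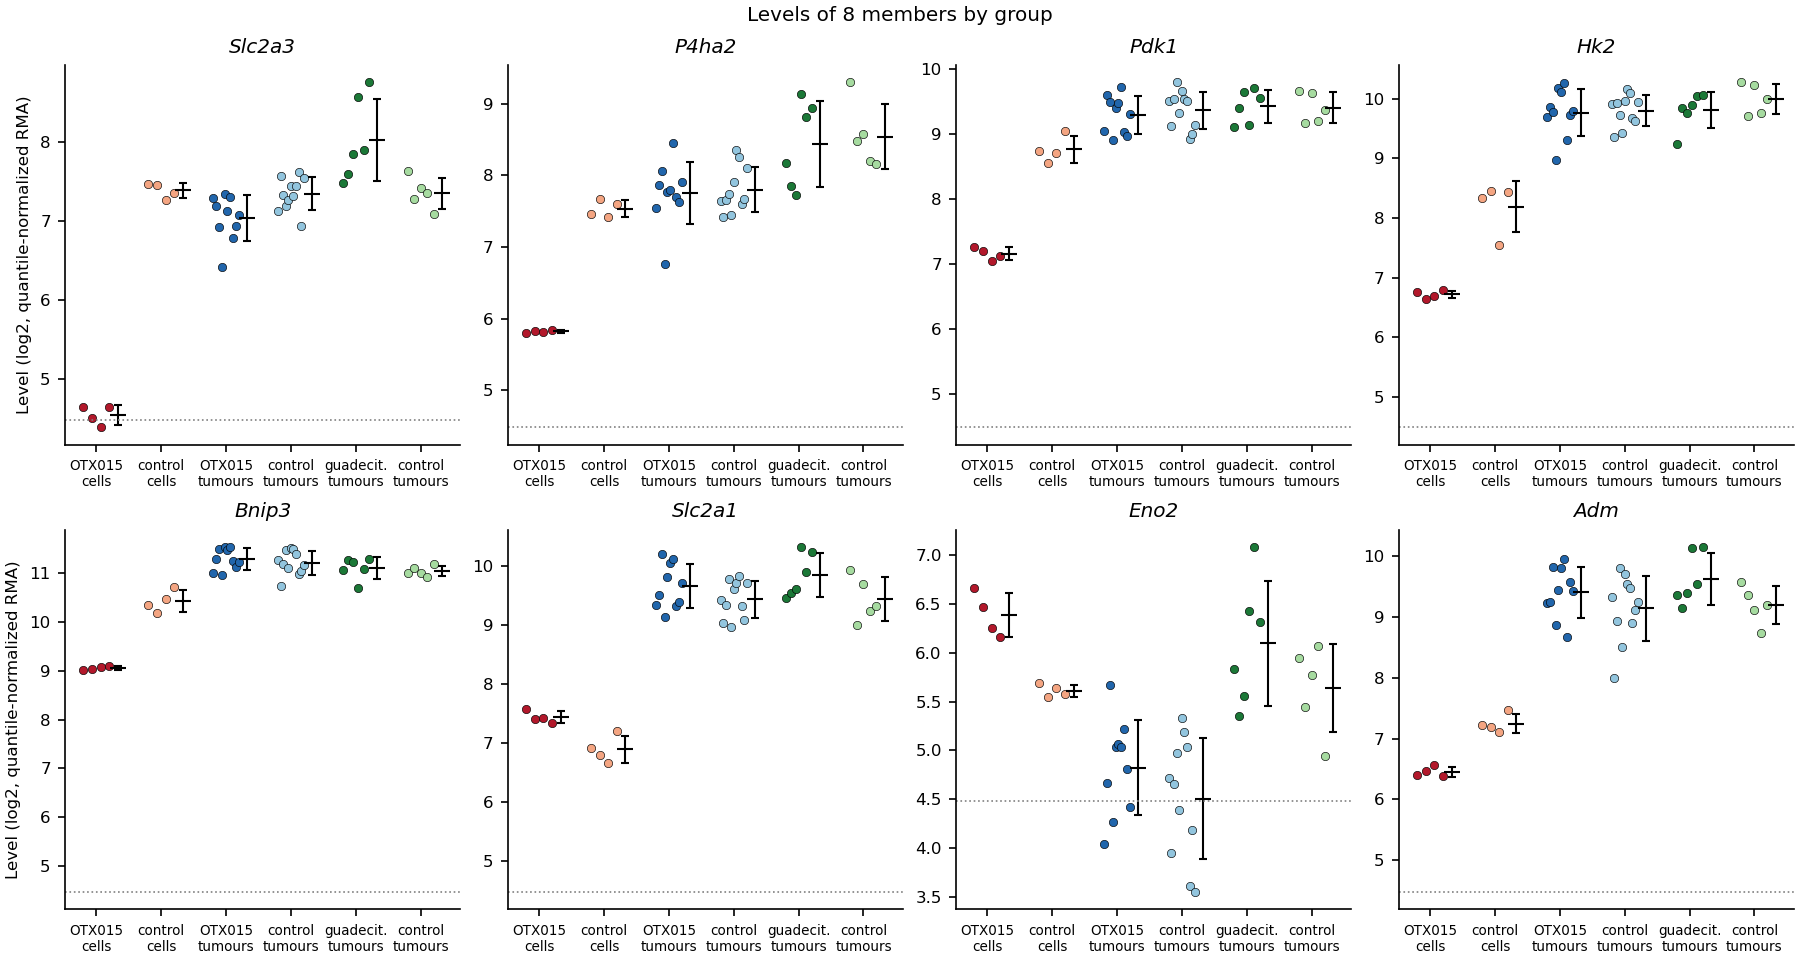
Levels (log2) of 8 members on each array, with the mean and SD of each group beside the points; the dotted line is the background level of 4.48, each treated group stands left of its own control, and axes do not start at 0. The OTX015-treated cultures lie below the control cultures for Slc2a3, P4ha2, Pdk1, Hk2, Bnip3 and Adm and above them for Slc2a1 and Eno2, and each treated tumour group overlaps its control in all 8 panels.

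Other genes of the same pathways were read from lists drawn up with earlier results of these data known. In OTX015-treated cells, 12 of 29 other hypoxia-induced genes fell and 7 rose, where 20.8% of all genes fell and 18.8% rose. Ak4, a mitochondrial adenylate kinase, fell by 1.64 ± 0.10, the transcriptional repressor Bhlhe40 by 1.69 ± 0.11 and the mTOR inhibitor Ddit4 by 1.35 ± 0.08, while the cell-cycle inhibitor Cdkn1a rose by 1.69 ± 0.08. Of 10 HIF subunits and regulators, 5 rose and 2 fell. Epas1, which encodes HIF-2α, averaged 8.36 in treated and 5.44 in control cultures, a rise of 2.92 ± 0.11 (adjusted p = 4.1e-10). Cited2, which competes with HIF for a coactivator, rose by 1.05 ± 0.07, and Hif1an, an asparaginyl hydroxylase that restrains HIF, by 0.89 ± 0.10. Siah1a, a ubiquitin ligase, fell by 0.96 ± 0.09.

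Neighbouring routes of glucose carbon gave both rises and falls, and their counts stand against 18.8% of all genes higher and 20.8% lower. In the pentose phosphate pathway, which yields NADPH and ribose, 4 of 7 measured genes rose and 1 fell; Pgd rose by 1.78 ± 0.08, H6pd by 0.43 ± 0.10, Taldo1 by 0.34 ± 0.07 and Tkt by 0.30 ± 0.08. Of 15 genes of pyruvate entry and lactate exchange, 6 rose and 4 fell. The lactate and pyruvate transporter Slc16a1 rose by 0.97 ± 0.09, pyruvate carboxylase (Pcx) by 0.88 ± 0.09 and the phosphatase Pdp1, which reverses the action of Pdk1, by 0.79 ± 0.09. Pdha1, the catalytic subunit of pyruvate dehydrogenase, fell by 0.80 ± 0.09. Of 11 glycogen genes, 5 fell and 3 rose, with Ugp2, which makes the glucose donor, at -1.16 ± 0.09, Pygl at -0.94 ± 0.10 and Gbe1 at -0.64 ± 0.08, and the phosphorylase Pygb at 1.37 ± 0.11. Of 18 other glycolytic isoforms and gluconeogenic genes, 5 rose and 3 fell, including Pck2 at -2.20 ± 0.07, Eno3 at -1.25 ± 0.09, the ADP-dependent glucokinase Adpgk at 0.75 ± 0.11 and Tigar at 0.63 ± 0.10. Of 10 genes of energy sensing, 5 rose, among them Mtor by 0.83 ± 0.09, Sesn1 by 0.57 ± 0.07 and Tsc1 by 0.37 ± 0.08, and 1 fell, Prkaa1, by 0.76 ± 0.07.

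In tumours of OTX015-treated mice 1 of the 30 members fell and none rose, where 7.51% of all genes fell and 8.68% rose. An unadjusted p under 0.05 in limma was found for 2 of the 30 members and for 4927 of all 17097 genes. The median difference was 0.04 over the members and 0.01 over all genes. The member that fell was Slc2a3. It ranged over 6.41, 7.10 and 7.35 (lowest, median, highest) in 10 OTX015-treated tumours, against 6.93, 7.33 and 7.63 in 11 control tumours. The groups overlapped, with 3 treated tumours below every control. The difference was -0.31 ± 0.10 (adjusted p = 0.047). The call was lost in 14 of 21 fits that left out 1 tumour, with adjusted p up to 0.086: control tumours 2, 3, 5, 6, 7, 8, 9 and 11, and treated tumours 3, 4, 6, 8, 9 and 10. It was -0.18 (adjusted p = 0.16) without the 3 arrays of lowest spread, an alternative chosen after seeing the data, and -0.06 (adjusted p = 0.69) as the mean of all its probe sets. That mean includes probe sets below background, and the second bright probe set by itself gave -0.17 (adjusted p = 0.54). Median centring (-0.29, adjusted p = 0.20), a minimum on dim genes (adjusted p = 0.069) and a fit of all 6 groups together (adjusted p = 0.079) also ended the call.

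After Slc2a3, the members that fell most in cells gave treated and control ranges in tumours that overlapped. Pdk1 was 8.90, 9.35 and 9.72 in OTX015-treated against 8.92, 9.50 and 9.79 in control tumours, a difference of -0.07 ± 0.12 (95% interval -0.32 to 0.18). P4ha2 was 6.76, 7.78 and 8.45 in OTX015-treated against 7.42, 7.67 and 8.35 in control tumours, a difference of -0.05 ± 0.15 (-0.36 to 0.27). Bnip3 was 10.95, 11.26 and 11.53 in OTX015-treated against 10.72, 11.18 and 11.50 in control tumours, a difference of 0.08 ± 0.10 (-0.12 to 0.28). Single treated tumours lay beyond the control range, 1 below it for Pdk1, 1 below and 1 above it for P4ha2 and 2 above it for Bnip3. For Hk2 the difference was -0.03 ± 0.14 (-0.32 to 0.25) and for Slc2a1 0.22 ± 0.14 (-0.07 to 0.51). The nearest to the threshold after Slc2a3 was Hif1a, at 0.15 ± 0.06 (adjusted p = 0.074), which passed without control tumour 5 (0.037) or treated tumour 4 (0.033). Ndrg1, at -0.33 ± 0.18 (adjusted p = 0.25), passed without treated tumour 7 (-0.46, adjusted p = 0.045). Dimmer probe sets of 4 members passed where the one used did not: Pfkl (0.38, adjusted p = 0.024), Pgk1 (-0.14, adjusted p = 0.031) and, below background, Pfkfb3 (-0.16, adjusted p = 0.029) and Egln3 (-0.25, adjusted p = 0.036).

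The share of higher calls in this comparison moved with the scaling. It was 53.6% of called genes after quantile normalization, 2.28% on the deposited values, where the median gene shifted by -0.21, and 63.4% after centring each array on its median. On the deposited values 7 of the 30 members and 9230 of all 17097 genes were lower, with median differences of -0.14 and -0.21. After median centring 3 members (Gapdh, Ldha and Aldoa) and 1947 genes were higher, with median differences of 0.11 and 0.04. Macrophage markers moved with the treatment, as 7 of 8 fell, with a median difference of -1.16 and array means of 4.60 to 6.76 in OTX015-treated against 6.14 to 8.27 in control tumours. Their part in the values of the members was not tested. Among related genes, Ldhb rose by 0.29 ± 0.07 and Pygb by 0.32 ± 0.07. Other hypoxia-induced genes counted 2 of 29 higher and 1 lower, no larger a share than the 8.68% and 7.51% of all genes. Of 10 HIF antagonists and genes of energy sensing, 1 rose and 3 fell. Of 18 other glycolytic isoforms and gluconeogenic genes, 1 rose and 2 fell. Of 15 genes of pyruvate entry and lactate exchange 1 rose and 1 fell, and of 11 glycogen genes 2 rose. No pentose phosphate gene passed. None of the 10 HIF subunits and regulators passed, Epas1 differing by -0.29 ± 0.16 (adjusted p = 0.23).

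Whether OTX015 acted differently on the members in tumours and in cells was tested directly, as its effect in tumours minus its effect in cells. It was higher in 15 members and lower in 3, against 18.0% and 14.6% of all genes. The median was 0.34 over the members and 0.00 over all genes. The difference of effects was 2.54 ± 0.18 for Slc2a3 (adjusted p = 3.3e-12), 1.66 ± 0.26 for P4ha2, 1.53 ± 0.21 for Pdk1, 1.45 ± 0.17 for Bnip3 and 1.44 ± 0.26 for Hk2. It was lower for Kdm3a (-0.48 ± 0.15), Pkm (-0.41 ± 0.15) and Pfkfb4 (-0.37 ± 0.11), which had risen in cells. The call of Pkm was lost without any of control cultures 1 and 3, OTX015-treated cultures 1 to 3, control tumours 6 and 10 and treated tumours 1, 5 and 9, with adjusted p up to 0.15. That of Pgk1 (0.30 ± 0.10) was lost without control culture 1 or 4 or treated culture 1 (adjusted p up to 0.059), and that of Tpi1 (0.41 ± 0.13) without control culture 4 (0.061). Other probe sets above background did not pass for Pgk1 (0.06, adjusted p = 0.64), Hk1 (0.74, adjusted p = 0.24) and Higd1a (0.67 and 0.33, adjusted p = 0.16 and 0.37). Below background, probe sets of Aldoc (0.06, adjusted p = 0.91), Pfkp (-0.08, adjusted p = 0.49) and Slc2a3 (0.18, adjusted p = 0.34) did not pass. Aldoa was not called, but its dimmer probe sets gave 0.29 (adjusted p = 0.0088), 0.33 (adjusted p = 0.030) and 0.28 (adjusted p = 0.055). For Slc2a1 it was -0.32 ± 0.25 and did not pass (95% interval -0.83 to 0.18, adjusted p = 0.35). Cultures and tumours differ in route and in unstated dose and time, which cannot be told apart here. Higher calls made up 55.2% of all calls after quantile normalization, 24.0% on the deposited values and 60.6% after median centring. On those alternatives 13 and 16 members were higher, beside 1742 and 3025 of all 17097 genes.

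Guadecitabine changed no member detectably: 0 of 30 passed in limma, as did 0% of all genes in either direction, with 1271 genes and 1 member under an unadjusted p of 0.05. The member was Slc2a3. It measured 7.48, 7.59, 7.85, 8.57, 7.91 and 8.76 in guadecitabine-treated tumours, against 7.63, 7.28, 7.42, 7.36 and 7.10 in their controls. All but 2 treated tumours were above every control, and the difference was 0.67 ± 0.22 (95% interval 0.18 to 1.16, adjusted p = 0.58). With all 6 groups in 1 fit, which shares the spread among them, it passed at an adjusted p of 0.031. Adm differed by 0.42 ± 0.21 and Slc2a1 by 0.41 ± 0.20, each with 2 of 6 treated tumours above every control. Intervals were wide for several members, such as -0.21 to 1.13 for Eno2 and -0.74 to 0.54 for P4ha2, and narrow for others, such as -0.14 to 0.15 for Gapdh.

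The effects of the 2 drugs in tumours were then compared, as OTX015 minus guadecitabine. Only Slc2a3 passed, at -0.98 ± 0.22 (adjusted p = 0.010), so that 0 members were higher and 1 lower, against 1.41% and 2.15% of all genes. The call was lost after median centring (adjusted p = 0.052) and when its probe sets, some of them below background, were averaged (adjusted p = 0.053). The second bright probe set of Slc2a3 by itself gave -1.01 (adjusted p = 0.037). Higher calls were 39.6% of all calls after quantile normalization and 1.45% on the deposited values. On the deposited values 4 of the 30 members were lower, beside 5160 of all 17097 genes.

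**Figure D3:**
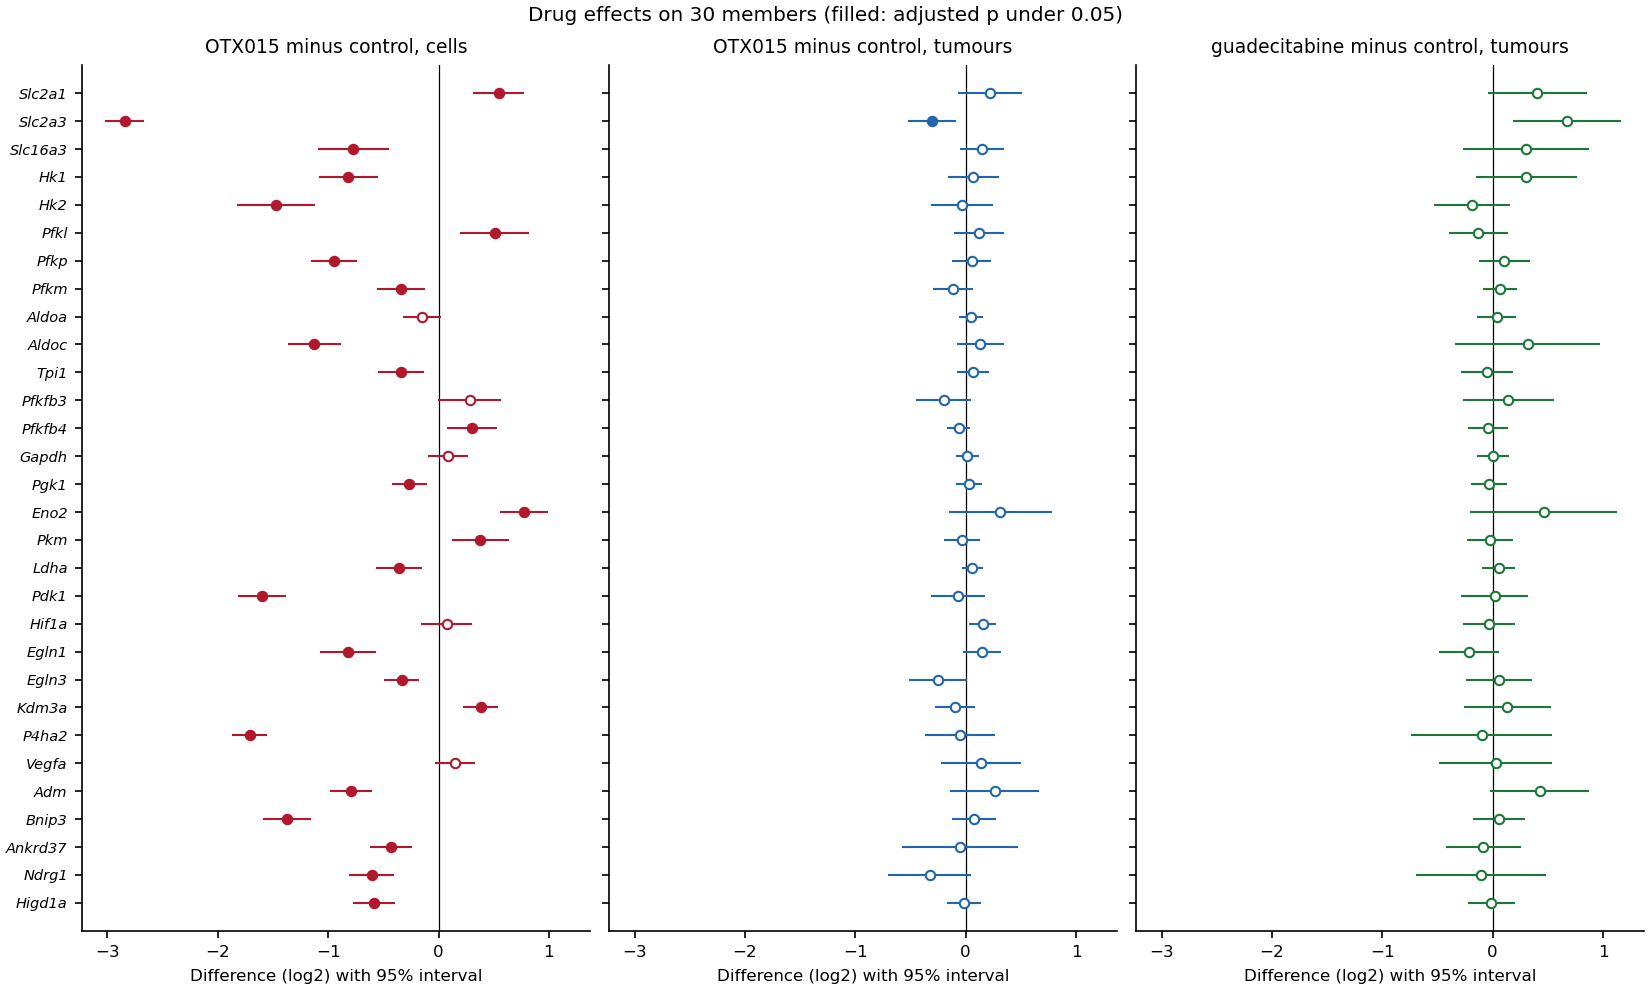
Difference (log2) between treated and control samples for the 30 measured members, with 95% intervals from limma, for OTX015 in cells (left), OTX015 in tumours (middle) and guadecitabine in tumours (right); filled points passed an adjusted p of 0.05. In cells 25 members passed, in OTX015-treated tumours 1 and in guadecitabine-treated tumours 0.

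Untreated tumours, 16 in 2 experiments, were set against the 4 untreated cultures. Most members were higher in tumours: 23 of 30 were higher and 2 lower, while 14.8% of all genes were higher and 22.1% lower. The median difference was 0.64 over the members and -0.02 over all genes. The largest were Slc2a1, Aldoc, Adm, Hk2 and Pfkl. The tumours also held other cells. All 8 macrophage markers were higher (median 3.57), with array means of 6.03 to 8.27 in control tumours against 3.65 to 3.78 in control cells, and the red-cell genes Hba-a1 and Alas2 were higher by 6.35 ± 0.08 and 3.93 ± 0.53. Of the other marker lists, 4 of 6 T and NK cell genes, 3 of 6 fibroblast genes, 1 of 4 neutrophil genes, 1 of 4 keratinocyte genes and 1 of 5 endothelial genes were higher, and 1 fibroblast and 1 of 6 muscle genes lower. Of the 5 endothelial genes, 1 was above background in tumours and in cultures alike. The part of these cells in the members' levels was not tested, and growth in the mouse cannot be told apart from any difference in handling between tumours and cultures.

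Slc2a1 was 8.96, 9.42 and 9.83 in the 11 control tumours of the OTX015 experiment and 9.001, 9.33 and 9.94 in the 5 of the guadecitabine experiment, against 6.66 to 7.21 in control cultures. Every tumour exceeded every culture, and the difference was 2.55 ± 0.17, or 5.85-fold (adjusted p = 3.0e-10). Slc2a3 gave no such difference: it averaged 7.35 and 7.36 in the control tumours of the OTX015 and guadecitabine experiments, against 7.39 in control cultures (-0.04 ± 0.11, 95% interval -0.26 to 0.18, adjusted p = 0.81). On other scalings it was called lower, at -0.37 on the deposited values (adjusted p = 0.012) and -0.47 after median centring (adjusted p = 0.0042). Slc16a3 averaged 5.00 and 4.73 in those tumours, just above background, against 4.13 in cultures.

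Upper glycolysis was higher in tumours, with 7 of 8 members called. Hk2 averaged 9.80 and 10.00 in control tumours of the OTX015 and guadecitabine experiments, against 8.19 in control cultures (1.71 ± 0.16), and Hk1 was higher by 1.32 ± 0.16. Aldoc was higher by 2.12 ± 0.16, Pfkl by 1.696 ± 0.15, Pfkp by 1.09 ± 0.10, Tpi1 by 0.49 ± 0.10 and Pfkm by 0.34 ± 0.10. The direction of Pfkm turned on other scalings, to -0.0080 on the deposited values and -0.11 after median centring, and its call was lost without control culture 1 (adjusted p = 0.068) or 3 (0.058). Aldoa differed by 0.08 ± 0.06 (adjusted p = 0.33), although 1 of its 3 dimmer probe sets gave 0.43 (adjusted p = 0.00020), and the other probe set of Hk1 did not pass (0.74, adjusted p = 0.13). All 16 tumours lay above all cultures for the other 6 of the group.

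In lower glycolysis Pkm was higher by 0.94 ± 0.12, Pgk1 by 0.31 ± 0.07 and Gapdh by 0.29 ± 0.08. Eno2 was uneven: it averaged 4.51 ± 0.62 (SD, n = 11) in control tumours of the OTX015 experiment and 5.64 ± 0.45 (SD, n = 5) in those of the guadecitabine experiment, against 5.61 ± 0.06 (SD, n = 4) in control cultures. The OTX015 experiment alone gave -1.10 (adjusted p = 0.0056), and both together -0.54 ± 0.27 (adjusted p = 0.13). Both experiments together passed on the deposited values (-0.75, adjusted p = 0.024) and after median centring (-0.85, adjusted p = 0.016). Ldha was higher by 0.64 ± 0.07 and Pdk1 by 0.62 ± 0.14. Pfkfb3 was lower by 0.32 ± 0.09, a call that was lost without control culture 2 (adjusted p = 0.073), and Pfkfb4 differed by 0.00 ± 0.07.

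Among oxygen-sensing and HIF-induced members, Adm was higher by 1.92 ± 0.23, Vegfa by 1.30 ± 0.22 and Egln1 by 1.30 ± 0.13. Adm was 7.99, 9.25 and 9.80 in the control tumours of the OTX015 experiment, against 7.10 to 7.47 in control cultures, and every tumour exceeded every culture. Ndrg1 was higher by 0.89 ± 0.18, Higd1a by 0.72 ± 0.09, Bnip3 by 0.70 ± 0.12, Kdm3a by 0.55 ± 0.13 and Hif1a by 0.34 ± 0.08. The other probe sets of Higd1a, dimmer but above background, did not pass (0.38, adjusted p = 0.29, and 0.01, adjusted p = 0.97). P4ha2 was higher by 0.64 ± 0.18, with averages of 7.80 ± 0.32 (SD, n = 11) and 8.54 ± 0.46 (SD, n = 5) in control tumours of the OTX015 and guadecitabine experiments, against 7.54 ± 0.12 (SD, n = 4) in control cultures. It did not pass with the OTX015 experiment alone (0.26, adjusted p = 0.18). Egln3 was lower by 0.43 ± 0.14 near background, a call lost with the OTX015 experiment alone (-0.21, adjusted p = 0.30) and without control culture 1 (adjusted p = 0.063). Ankrd37 differed by 0.43 ± 0.27 (adjusted p = 0.23).

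Of 29 other hypoxia-induced genes, 17 were higher in untreated tumours and 1 lower, where 14.8% of all genes were higher and 22.1% lower. Car9, the carbonic anhydrase IX often used as a marker of hypoxia, averaged 9.69 in tumours and 5.91 in cultures, a difference of 3.78 ± 0.15 (adjusted p = 1.4e-13). Bhlhe40 was higher by 2.00 ± 0.20, the collagen-modifying Plod1 by 1.46 ± 0.16 and Fam162a by 0.70 ± 0.08. Of 11 glycogen genes 6 were higher, led by Pgm1 (1.57 ± 0.11) and glycogen synthase Gys1 (1.47 ± 0.14), and 1 was lower, Gyg (-0.69 ± 0.08). In the pentose phosphate pathway 3 of 7 were higher, with Pgd at 1.21 ± 0.07 and Tkt at 0.58 ± 0.07. Of 10 HIF subunits and regulators 2 were higher and 3 lower, among them Egln2 at 0.41 ± 0.08, Arnt2 at -0.77 ± 0.10, Siah1a at -0.85 ± 0.11 and Cited2 at -0.80 ± 0.21.

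Fewer members were higher on other scalings. Median centring, which shifted the median gene by -0.12, left 15 members higher and 4 lower, beside 1217 and 5987 of all 17097 genes. The deposited values left 18 and 4 members, beside 2154 and 4816 genes. Higher calls made up 40.1% of all calls after quantile normalization, 30.9% on the deposited values and 16.9% after centring. Hif1a, Pdk1, Kdm3a and P4ha2 kept their direction but did not pass on either alternative, and Gapdh, Pgk1 and Ndrg1 did not pass after median centring. The control tumours of the OTX015 experiment alone gave 22 members higher and 1 lower, and those of the guadecitabine experiment alone 22 and 2.

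**Figure D4:**
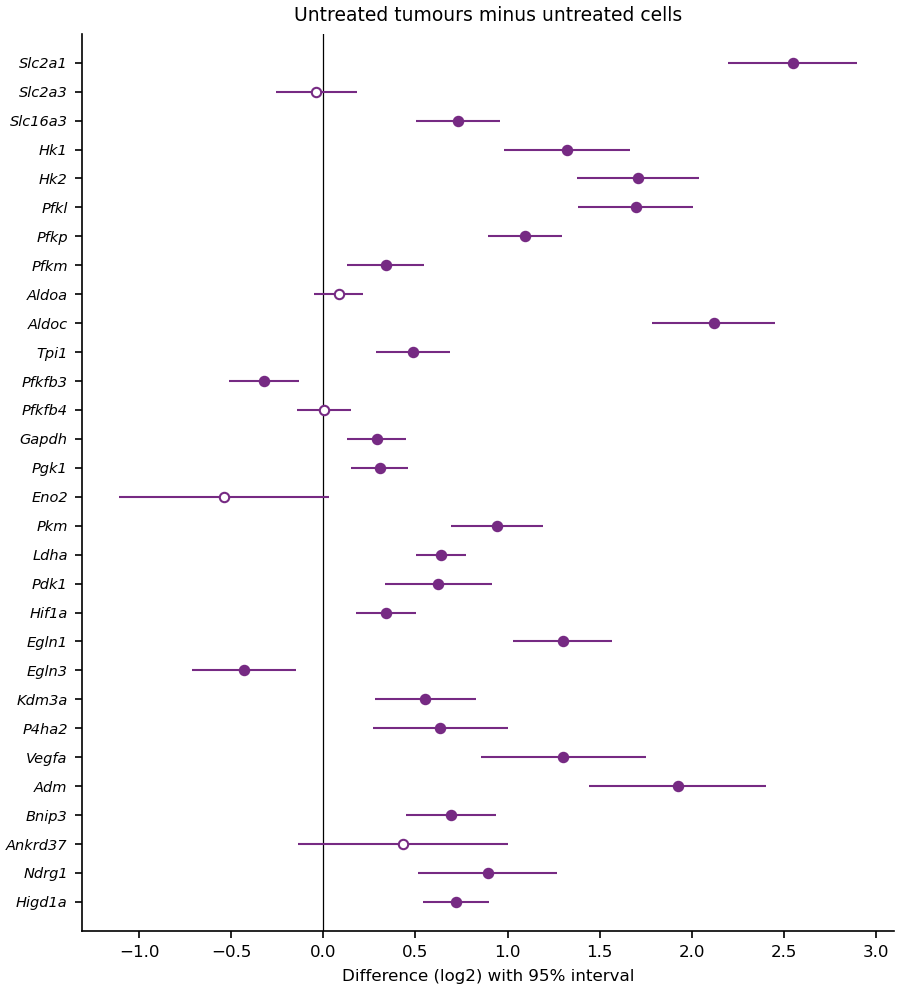
Difference (log2) between untreated tumours of both experiments and untreated cultures for the 30 measured members, with 95% intervals from limma; filled points passed an adjusted p of 0.05. Slc2a1 lies farthest to the right at 2.55, Egln3 and Pfkfb3 passed to the left of 0, and Eno2 and Slc2a3 lie to the left of 0 without passing.

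The OTX015 comparison in cells and the comparison of untreated tumours with cells use the same 4 control cultures, so their values stand side by side with no test between them. Hk2 differed by -1.47 in OTX015-treated cells and by 1.71 in untreated tumours, Aldoc by -1.12 and 2.12, Bnip3 by -1.37 and 0.70, and Adm by -0.79 and 1.92. Slc2a1 differed by 0.54 and 2.55. Slc2a3 differed by -2.84 and -0.04, and Vegfa by 0.15 and 1.30.

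Members were also compared across the tumours within a group. Across the 435 pairs of members, the median Pearson r was 0.48 over the 10 OTX015-treated tumours and 0.51 over the 11 control tumours of that experiment. The points share array quality and cell make-up, so these values are a description, and no value for other genes stands beside them. Some members did not follow the rest: the median r to the other members was -0.24 for Pfkm and 0.03 for Pkm in OTX015-treated tumours, and -0.22 for Slc2a3 and 0.00 for Hif1a in control tumours. In 4 named pairs, tested in both groups by permutation with adjustment over the 8 relations, Vegfa and Adm rose and fell together. Their r was 0.93 (rho 0.88, permutation p = 0.00026, adjusted p = 0.0010) in OTX015-treated tumours and 0.96 (rho 0.97, permutation p = 2e-05, adjusted p = 0.00016) in control tumours, where that p is the smallest the 100000 resamples can give. The permutation p for rho was 0.0015 in OTX015-treated and 4e-05 in control tumours. Without the 2 tumours farthest from the median of Vegfa the r was 0.83 and 0.91.

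The other pairs were looser. For Slc2a1 with Pdk1, r was 0.83 (rho 0.82, permutation p = 0.0043, adjusted p = 0.011) in OTX015-treated tumours and 0.58 (rho 0.57, permutation p = 0.065, adjusted p = 0.086) in control tumours. For Bnip3 with Egln3, r was 0.74 (rho 0.78, permutation p = 0.013, adjusted p = 0.021) in OTX015-treated tumours and 0.50 (rho 0.57, permutation p = 0.11, adjusted p = 0.11) in control tumours. For Pgk1 with Ldha, r was 0.63 (rho 0.59, permutation p = 0.10, adjusted p = 0.11) in OTX015-treated tumours and 0.80 (rho 0.80, permutation p = 0.0071, adjusted p = 0.014) in control tumours. Without the 2 farthest tumours, r for Slc2a1 with Pdk1 was 0.77 in treated and 0.64 in control tumours. For Bnip3 with Egln3 it was 0.65 and 0.56 in those groups, and the p in treated tumours, with n down to 8, was 0.084 (permutation). Egln3 averaged 4.31 in treated tumours, below background. For Pgk1 with Ldha it was 0.79 and 0.76. The permutation p for rho lay between 0.0042 and 0.081 in these 6 relations. Differences between the groups in r were not tested.

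In OTX015-treated tumours Slc2a3 was most like Hk2 (r = 0.89, n = 10), with a median r of 0.50 to the other members. Treated tumour 4, 1 of the 3 arrays of lowest spread, held the lowest value of both genes, 6.41 for Slc2a3 and 8.97 for Hk2. In control tumours the closest member was Egln3 (r = 0.50, n = 11). These are descriptions, and the difference between the groups was not tested. Vegfa was closest to Ankrd37 in control tumours (r = 0.97), and P4ha2 was closest to Ankrd37 in OTX015-treated tumours (r = 0.94).

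**Figure D5:**
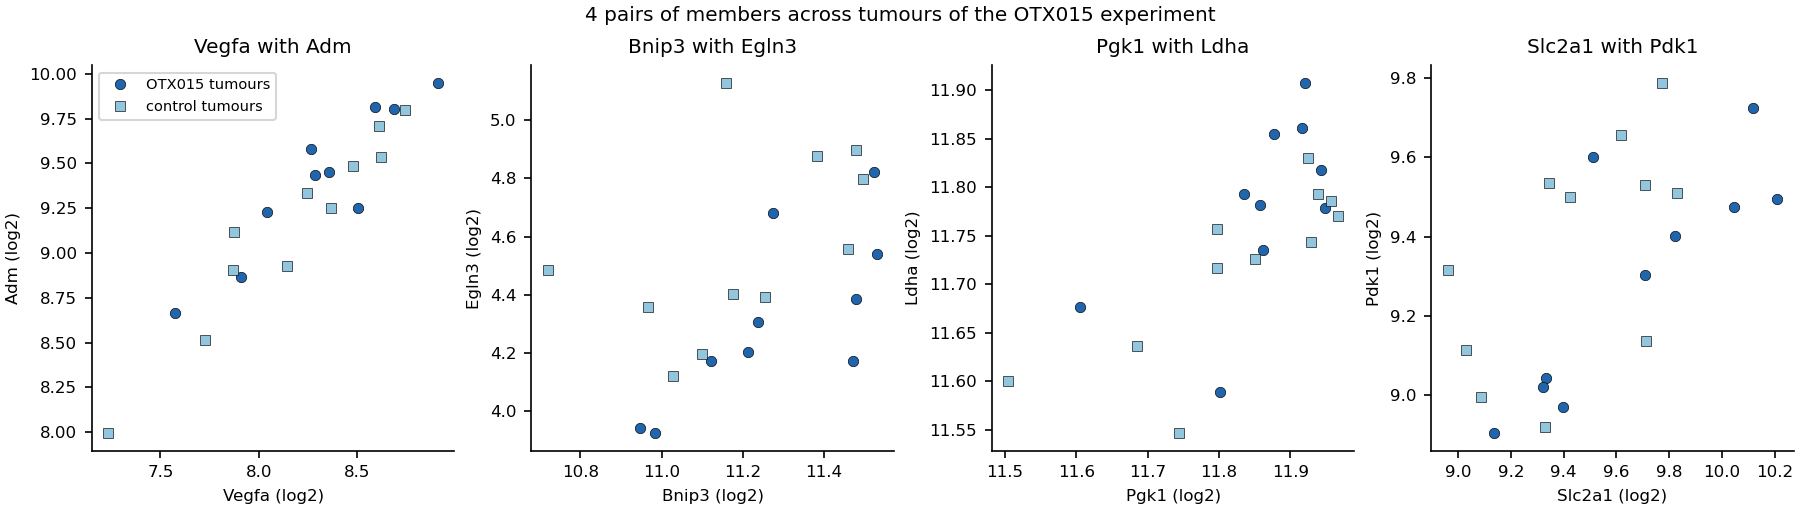
Levels (log2) of the 4 pairs of members in each tumour of the OTX015 experiment; circles are 10 OTX015-treated tumours and squares 11 control tumours. Vegfa and Adm lie close to a line in both groups, with r of 0.93 and 0.96, and the other pairs scatter more widely.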

How the data were processed

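Each of 40 samples was hybridised to 1 Affymetrix array. The authors deposited log2 signals per probe set, made with RMA per the submitters' processing notes, which also name the Transcriptome Analysis Console. Whether all arrays were summarised in 1 run was not given in the sources used here. Of 45141 probe sets, 28898 named 1 gene, 551 named several and 15692 had no name in the platform annotation; names were updated through RefSeq GRCm38.p6. For each of 17097 genes the probe set naming it alone with the highest mean over 40 arrays was used. Values were quantile normalized over all arrays and compared with limma 3.58.1 (R 4.3.3), 2-sided, with Benjamini-Hochberg adjustment over all genes and calls at adjusted p under 0.05. The contrast of untreated tumours took the mean of both control tumour groups. Correlations used scipy 1.17.1 with 100000 resamples. The fits were tested on simulated data. The number of arrays limits precision, and no depth applies. No 2 arrays were duplicates, the smallest mean difference between any pair being 0.12.

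All measured members were named, and up to 4 genes of each other pathway list by smallest adjusted p. Members and lists were chosen with earlier results of these data known. Alternatives were the deposited values, median centring, quantile normalization within the fit, a minimum on dim genes, averaging each gene's probe sets, limma with trend and robust settings, all 6 groups in 1 fit, a fold threshold of 1.5, a replicate block, single experiments and leaving out each sample. Same-numbered samples did not steadily deviate together (r of -0.10 to 0.15 in cells, -0.54 to 0.43 and -0.44 to -0.05 in tumours of OTX015 and guadecitabine). The labels do not say whether numbers pair samples.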

Additional observations from a re-analysis of the deposited data

Results flagged for a closer look

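In 150 groups of values from 4 to 10 samples, the gap between the highest or lowest value and its nearest neighbour was divided by the range of the group. Against a limit set for each group size, 10 values stood apart, and chance picks out about 1 in 20 such groups. The 11 control tumours of the OTX015 experiment, a larger group, were not screened. Guadecitabine-treated tumour 4 appeared 3 times: Slc16a3 was high at 6.30 (4.70 to 4.93 in the other 5), Bnip3 was low at 10.68 (11.06 to 11.27) and Higd1a was low at 10.36 (10.70 to 10.88). Guadecitabine-treated tumour 1 had the lowest Hk2, 9.25 (9.76 to 10.07). Control culture 3 had the lowest values of both hexokinases, 7.54 for Hk2 (8.34 to 8.45) and 6.74 for Hk1 (7.25 to 7.32). OTX015-treated culture 1, the one with the raised 3′ to 5′ difference of Gapdh, had the highest Higd1a at 9.59 (9.38 to 9.40). Among OTX015-treated tumours, Pfkfb3 was low at 3.80 in tumour 4 (4.53 to 5.22), which is also 1 of the 3 arrays of lowest spread. Pgk1 was low at 11.60 in tumour 1 (11.80 to 11.95), and Ndrg1 was high at 9.27 in tumour 7 (7.59 to 8.45).

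The effect of OTX015 differed between tumours and cells, by the limma contrast of the effects themselves, in 18 members. As the effect in tumours minus that in cells, it was 2.54 for Slc2a3, 1.66 for P4ha2, 1.53 for Pdk1, 1.45 for Bnip3, 1.44 for Hk2, 1.26 for Aldoc, 1.05 for Adm and 1.002 for Pfkp. It was 0.97 for Egln1, 0.92 for Slc16a3, 0.89 for Hk1, 0.57 for Higd1a, 0.42 for Ldha, 0.41 for Tpi1 and 0.30 for Pgk1. It was below 0 for Kdm3a (-0.48), Pkm (-0.41) and Pfkfb4 (-0.37). The effects of OTX015 and guadecitabine in tumours differed for Slc2a3, by -0.98 (adjusted p = 0.010 in limma).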

How the results depend on the processing

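Under the other settings, OTX015 in cells kept direction and side of the threshold in 231 of 238 member values, OTX015 in tumours in 252 of 268, guadecitabine in 237 of 238, untreated tumours against cells in 302 of 329, tumours minus cells in 257 of 269 and OTX015 minus guadecitabine in 262 of 268. In untreated tumours against cells, Pfkm turned to -0.0080 on the deposited values and -0.11 after median centring. Counts below are higher, then lower; causes of the changes were not tested. A minimum of 1.5-fold left 1 and 12 members and 1409 and 1759 genes in cells; 0 lower members and 87 and 130 genes in OTX015-treated tumours; 0 lower members and 963 and 1747 genes in untreated tumours; 0 lower members and 1801 and 1437 genes in tumours minus cells; and 85 and 157 genes between the drugs. All 6 groups in 1 fit gave 3 higher members in cells, 0 lower in OTX015-treated tumours, 1 higher with guadecitabine (169 and 88 genes), 1 lower in untreated tumours and 613 lower genes between the drugs. Deposited values gave 7 lower members (215 and 9230 genes) in OTX015-treated tumours, 4 lower in untreated tumours, 1742 and 5508 genes in tumours minus cells, 4 lower members (76 and 5160 genes) between the drugs and r of 0.71 (adjusted p = 0.025 by permutation) for Slc2a1 with Pdk1 in control tumours. Median centring gave 3 and 0 members in OTX015-treated tumours, 15 and 4 members (1217 and 5987 genes) in untreated tumours, 1 lower member in tumours minus cells and 0 lower between the drugs. Without dim genes, OTX015-treated tumours had 0 lower members (478 and 404 genes), guadecitabine 2 and 1 genes, and the drugs' difference 32 and 104 genes. The mean of all probe sets gave 1 and 0 members in OTX015-treated tumours, 1 higher gene with guadecitabine and 0 lower members between the drugs; trend and robust settings gave 2 and 1 genes with guadecitabine. The control tumours of the OTX015 experiment alone left 1 lower member. Without the 3 arrays of lowest spread, chosen after seeing the data, OTX015-treated tumours had 0 lower members.

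With the replicate block, counts of members were 6 and 19 in cells, 0 lower in OTX015-treated tumours (Slc2a3 -0.29, adjusted p = 0.084 in limma), 22 and 3 in untreated tumours, 15 and 2 in tumours minus cells and 0 lower between the drugs (Slc2a3 -0.89, adjusted p = 0.058; 245 lower genes). Same-numbered samples correlated over 0.1 in 1 of 4, 4 of 10 and 0 of 5 pairs of cells, OTX015-experiment tumours and guadecitabine-experiment tumours. OTX015-treated cultures 1 and 3 deviated most like the control culture of their own number (r of 0.095 and 0.15). The labels do not say whether numbers pair samples, and these correlations cannot settle it.

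Leaving out 1 sample at a time moved members to 4 to 7 higher and 18 to 20 lower in cells (2904 to 3228 and 3279 to 3543 genes), 0 to 1 and 0 to 2 in OTX015-treated tumours (1303 to 1530 and 1086 to 1349 genes), 22 to 23 and 1 to 2 in untreated tumours (1973 to 2689 and 3215 to 3875 genes), and 13 to 15 and 2 to 4 in tumours minus cells (2832 to 3249 and 2215 to 2654 genes). With guadecitabine 0 members and 0 to 2 and 0 to 1 genes passed, and between the drugs 0 and 1 members and 170 to 292 and 236 to 533 genes. Slc16a3, Egln3 and Pfkfb4 lie near background, where signal limits what a difference can show.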
